A study of Mus musculus with 2 samples.

Results

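Vomeronasal receptor genes were examined for peaks of H4K12la, the lactylated form of lysine 12 of histone H4, in Neuro2a cells. The set holds every protein-coding gene of the RefSeq table whose symbol begins with Vmn1r or Vmn2r on chromosomes 1 to 12, which is 269 of 21887 protein-coding genes, 180 of them Vmn1r and 89 Vmn2r. With the other chromosomes the table lists 355 such genes. Neuro2a is a mouse neuroblastoma line, labelled as brain tumour cells. Both samples were the same line, grown in serum-containing medium, and differed in the treatment: NaCl for the control and lactate at 25 mM for the lactate library, with 1 library per group. Not given in the sources used here were the dose of NaCl, the time of treatment and whether the libraries came from separate cultures. H4K12la was profiled by CUT&Tag, in which a transposase tethered to the antibody cuts and tags nearby DNA. With 1 library per group no difference below has a replicate check, no test was run, and all intervals cover counting error only.

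Vomeronasal receptors are G-protein-coupled receptors that detect pheromones and other social cues in the sensory neurons of the vomeronasal organ. Vmn1r genes encode receptors with short extracellular ends and have a coding sequence in a single exon, and Vmn2r genes encode receptors with a long extracellular domain built from several exons. The genes lie in tandem clusters of close copies, and a sensory neuron is known to use very few of them while the rest stay silent. Histone lactylation is an acylation whose donor derives from lactate, and it is often found with other acyl marks at active promoters. These cells are not vomeronasal neurons. Of 5 markers of such neurons, the channel gene Trpc2, the olfactory marker protein gene Omp and the transcription factor gene Tfap2e had no peak in either library, Calr4 had 1 peak in its body in each, and the G-protein subunit gene Gng8 had gene-end peaks in the lactate library alone, the higher with 19 summit reads (11.4 to 29.7). Of 9 markers of the line itself, 3 had a control and 5 a lactate gene-end peak, Map2 and Stmn2 in both. Of 8 markers of other cell types, 0 had a control and 1 (Mbp) a lactate gene-end peak. Over all protein-coding genes the shares were 32.1% and 45.0%, and the lists were not tested against them.

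Peak lists carry no read totals, but the lowest background recovered from them was 2.96 reads for the control and 3.06 for lactate. The lowest summit of any peak was 11 reads in each. The lists held 46592 control and 39768 lactate peaks, and a gene without a peak may still hold signal too low to be called. A gene-end peak below is a peak that meets, by at least 1 bp, the window of 1 kb on either side of an annotated gene end. Fold is the deposited ratio of the summit to the local background of the same library. Vmn2r122, Vmn1r186 and Vmn1r187 are listed at coordinates below 3 Mb, ahead of every peak outside chromosome Y, and were not placed. The other 266 genes, 178 Vmn1r and 88 Vmn2r, are counted below.

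The sequences shown first are promoter windows from RefSeq (GRCm38.p6, the assembly that mm10 names), running from 250 bases before to 50 after the start, 5′ to 3′ on the gene's own strand, with each CpG in capitals. They were chosen because Vmn2r29 has a pair of starts of which the outer carried a peak in both libraries and the inner carried none, and because the windows of Vmn2r49, Vmn1r48 and Vmn1r51 hold few CpG and met a peak in 1 library each. The outer start of Vmn2r29 is at chr7:7278240-7278539 and the inner one at chr7:7247279-7247578, both on the minus strand. The Vmn2r49 window is at chr7:9992090-9992389 (minus), the Vmn1r48 window at chr6:90036792-90037091 (minus) and the Vmn1r51 window at chr6:90122393-90122692 (plus).
Vmn2r29 outer start: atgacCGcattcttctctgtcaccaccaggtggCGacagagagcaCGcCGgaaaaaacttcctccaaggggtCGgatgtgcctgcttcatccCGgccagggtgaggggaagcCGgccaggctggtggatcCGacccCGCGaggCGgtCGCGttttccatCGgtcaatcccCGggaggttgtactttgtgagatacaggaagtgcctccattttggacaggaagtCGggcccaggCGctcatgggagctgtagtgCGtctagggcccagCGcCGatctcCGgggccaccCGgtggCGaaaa
Vmn2r29 inner start: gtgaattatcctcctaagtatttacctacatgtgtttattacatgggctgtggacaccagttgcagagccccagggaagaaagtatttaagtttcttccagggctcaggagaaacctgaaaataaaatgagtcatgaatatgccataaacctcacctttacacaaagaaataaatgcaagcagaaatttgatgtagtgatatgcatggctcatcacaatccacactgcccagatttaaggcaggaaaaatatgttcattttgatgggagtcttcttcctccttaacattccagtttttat
Vmn2r49: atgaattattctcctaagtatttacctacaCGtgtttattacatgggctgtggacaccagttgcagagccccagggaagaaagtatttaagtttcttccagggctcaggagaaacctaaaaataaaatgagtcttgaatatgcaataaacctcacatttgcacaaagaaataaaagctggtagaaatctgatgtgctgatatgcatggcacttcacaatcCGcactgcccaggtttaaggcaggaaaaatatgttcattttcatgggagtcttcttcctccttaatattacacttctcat
Vmn1r48: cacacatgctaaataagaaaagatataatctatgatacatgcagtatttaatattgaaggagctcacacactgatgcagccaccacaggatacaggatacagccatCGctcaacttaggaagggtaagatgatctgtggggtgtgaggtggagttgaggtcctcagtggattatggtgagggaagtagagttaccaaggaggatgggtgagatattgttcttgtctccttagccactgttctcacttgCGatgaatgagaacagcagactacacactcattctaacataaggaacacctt
Vmn1r51: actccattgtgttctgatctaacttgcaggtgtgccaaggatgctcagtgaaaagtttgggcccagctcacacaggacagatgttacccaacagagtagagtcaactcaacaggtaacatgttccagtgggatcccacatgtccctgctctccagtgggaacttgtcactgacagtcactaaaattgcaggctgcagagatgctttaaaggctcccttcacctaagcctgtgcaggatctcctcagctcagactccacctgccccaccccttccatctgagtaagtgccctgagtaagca

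The outer start of Vmn2r29 holds 23 CpG and has a G+C content of 62.3%. The inner start, 30961 bp farther along the gene, holds 0 CpG at 38.3%. By position and without gaps, the inner start was 91.7% identical to the Vmn2r49 window and 22% identical to the outer start of its own gene. The Vmn2r49 and Vmn1r48 windows hold 2 CpG each, at 38.7% and 43.3% G+C, and that of Vmn1r51 holds 0 at 51.0%, near the top of the Vmn1r windows, whose median was 36.0% and highest 51.3%. RefSeq gave 244 promoter windows for 243 of the 266 genes. Their median was 1 CpG, against 13 over 21263 promoter windows of all protein-coding genes, and the outer start of Vmn2r29 was the single window with more than 6. The letters AGGAAGT, the core of many ETS factor motifs, were found on either strand 3 times in the outer window and not in the inner one. They occur in 9.07% of all promoter windows and in 32.4% of the Vmn windows. Of the 244 Vmn windows, 108 were at least 90% identical to that of another gene of the set, so their matches are not independent. Where in a window the matches lie was not counted. The letters CCAGGTGGC, part of the CTCF motif, occur 1 time in the outer window, in no other Vmn window and in 0.484% of all windows. Both motifs were picked after the sequence was seen, and a match is a description of the letters. The letters TATAAA, also searched for, occur in 37.7% of the Vmn windows, in 12.6% of all windows and in neither start of Vmn2r29. In 86.9% of the Vmn windows the annotated start is an ATG, against 8.13% of all windows, so for most of these genes the annotated 5′ end is the start of the coding sequence and the true transcription start may lie elsewhere.

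Promoter windows of the family seldom met a peak, as was so of other promoters with few CpG. A control peak met 4 of the 244 windows (1.64%) and a lactate peak met 2 (0.820%). Among all promoter windows with at most 2 CpG 2.06% met a control peak and 1.67% a lactate peak, and among those with 3 to 6 CpG 5.28% and 7.68% did. Among those with 23 CpG or more, which includes the outer start of Vmn2r29, they were 43.1% and 68.1%. Of the Vmn windows, 191 held at most 2 CpG, 52 held 3 to 6 and 1 held 23.

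**Figure D1:**
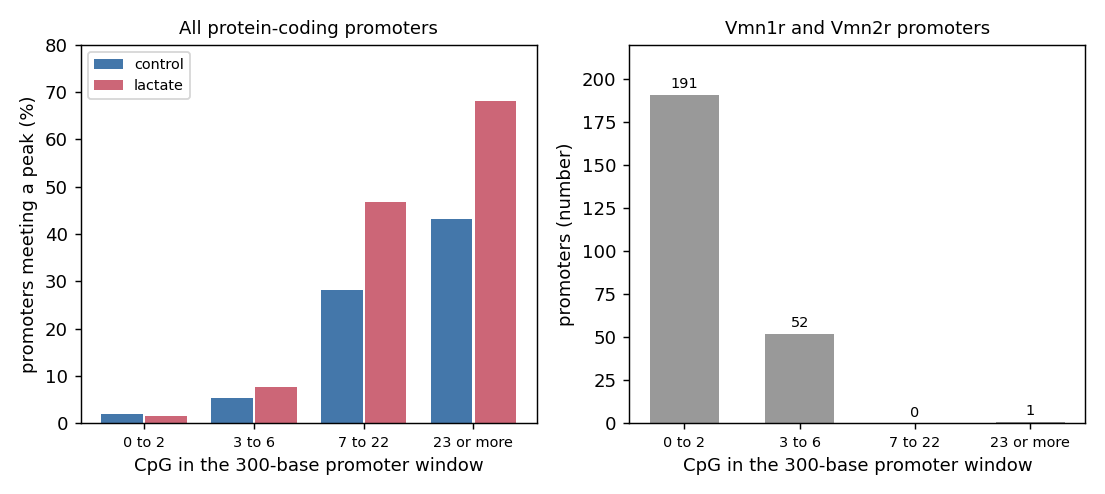
Left, share of all protein-coding promoter windows of 300 bases that meet a peak (%, y axis) by number of CpG (x axis), in the control (blue) and lactate (red) library. Right, number of Vmn1r and Vmn2r promoter windows by the same CpG classes, 243 of which hold 6 CpG or fewer; bars have no replicates.

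Gene-end peaks were fewer at vomeronasal receptor genes than over all genes, and most were in the control. The control had one at 24 of 266 genes, or 9.02% (exact binomial 95% interval 5.87% to 13.1%), where the share over all 21779 placed protein-coding genes was 32.1%. The lactate library had one at 9 genes, or 3.38% (1.56% to 6.33%), where the share over all genes was 45.0%. With a −log10 q of at least 3, where 24 and 9 become 8 and 6, most of that contrast was gone. Both libraries called 7 genes (all genes 28.8%), the control alone 17 (all genes 3.35%) and the lactate library alone 2 (all genes 16.2%). With gene bodies included, 48 genes had a control peak (all genes 47.7%) and 19 a lactate peak (all genes 57.9%). The median length was 951 bp in the set and 17217 bp over all genes. A gene of the set thus mostly offers less sequence to meet a peak, and the end windows of short genes overlap. No peak of either library lay at or in 216 of the 266 genes. Thus the order of the libraries was opposite to that over all genes. Both shares lay below the background, without adjustment for gene length. The difference between the gene sets was not tested.

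The families differed in length and in share. Vmn1r genes, with a median length of 924 bp, had a control gene-end peak at 10 of 178 genes and a lactate one at 3. Vmn2r genes, with a median of 23676 bp, had a control one at 14 of 88 genes and a lactate one at 6. No Vmn2r gene was called in the lactate library alone, which allows a share of up to 3.41% by the limit of 3 counts of the total, or 4.11% by the exact binomial bound. Odorant receptor genes, the other large chemoreceptor family, had control peaks at 7.12% of genes (5.68% to 8.80%) and lactate peaks at 1.53% (0.895% to 2.44%), with 72 of 1109 called in the control alone. Defensin and major urinary protein genes, also tandem copies, had shares of 28% (16.2% to 42.5%) and 12% (4.53% to 24.3%) of 50 genes. In each of these families, as in both Vmn families, the control share was the higher, which is the reverse of all genes.

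**Figure D2:**
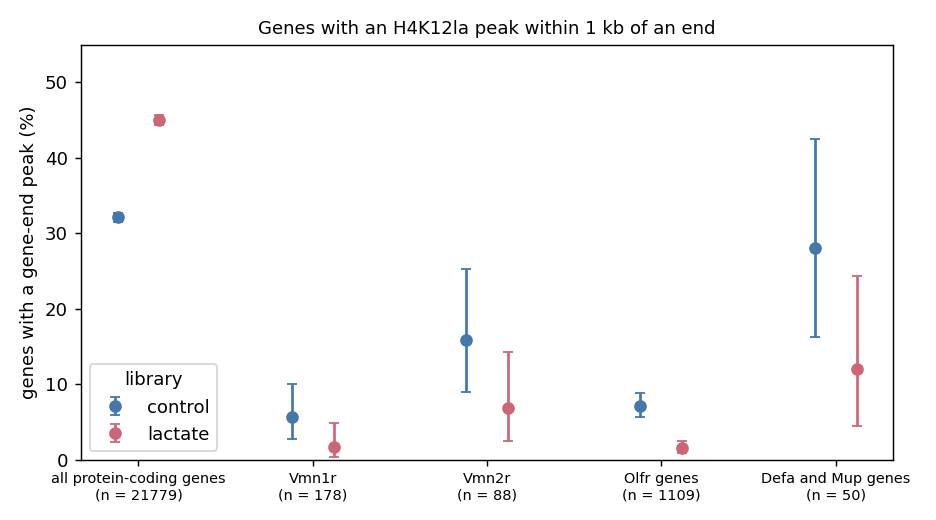
Share of genes (%, y axis) with a peak within 1 kb of an end, by gene class, in the control (blue) and lactate (red) library; bars are exact binomial 95% intervals, which cover counting error only. The lactate share is the higher over all genes (45.0% against 32.1%) and the lower in each chemoreceptor, defensin and urinary protein class.

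The 7 genes called in both libraries were Vmn2r29, Vmn2r2, Vmn2r4, Vmn1r4, Vmn2r36, Vmn2r43 and Vmn2r49, all but Vmn1r4 of the V2R family. Vmn2r29 (chromosome 7, 7212996 to 7278289) had the highest fold of any gene-end peak in the set, a control fold of 7.58 with 29 summit reads (exact Poisson 95% interval 19.4 to 41.6) and a lactate fold of 7.53 with 38 reads (26.9 to 52.2). The control peak ran from 7277553 to 7278441 and covered 202 bases of the outer start shown above, and the lactate peak, from 7277611 to 7278565, covered all 300. Its inner start met no peak. The folds were close and the read intervals overlapped; equality of the counts cannot be read from 1 library each.

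Vmn2r2 (chromosome 3, 64115730 to 64170917) had the most reads of the set, 72 for the control (56.3 to 90.7) and 43 for lactate (31.1 to 57.9), with folds of 6.60 and 6.01. These peaks, 1524 and 1453 bp wide, began beyond the 5′ end of Vmn2r2 and lay inside the 142676 bp gene model of Vmn2r1, which spans it. Local backgrounds there were 10.06 and 6.32 reads, above the 2.96 and 3.06 of each library. The RefSeq promoter window of Vmn2r2 starts 33437 bp inside the annotated end. Vmn2r4, in the same cluster, had a peak near its 5′ end in each library, with 26 control reads (17.0 to 38.1) and 18 lactate reads (10.7 to 28.4), and its promoter window lies 5263 bp farther in. Counts of the control were thus the higher at both genes, with intervals that overlapped.

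Vmn1r4 (chromosome 6, 56923914 to 56957608) was the sole V1R gene called in both and the sole called gene in either library whose peak also lay at an end of a protein-coding gene outside the set. The control had peaks of 13 and 12 reads there and the lactate library a single wider one of 35 reads (24.4 to 48.7). That end is shared with Nt5c3, which encodes a pyrimidine nucleotidase, and the promoter window of Vmn1r4 itself begins 32599 bp away. Of the 244 windows, 230 lay at the annotated end and 12 lay more than 1 kb inside it. The 4 genes called in both at a 5′ end (Vmn2r29, Vmn2r2, Vmn2r4 and Vmn1r4) each have a promoter window more than 1 kb inside, and Vmn2r29 has another at the end itself.

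Vmn2r36, Vmn2r43 and Vmn2r49, 3 members of neighbouring clusters of chromosome 7, were called in both at the 3′ end. Vmn2r43 had 25 control reads (16.2 to 36.9) and 14 lactate reads (7.65 to 23.5) in peaks that overlapped. Vmn2r36 had 20 control reads and 15 lactate reads in overlapping peaks. At Vmn2r49 the 3′ control peak had 17 reads and the lactate one 14, and a further control peak of 15 reads met 55 bases of the promoter window shown above. The promoter windows of Vmn2r36 and Vmn2r49 were 95.3% and 100% identical to that of Vmn2r32. Reads of these genes may thus be split or shared between copies where they are alike. The closest window to that of Vmn2r43 was 32.3% identical, but identity was scored without gaps and falls where annotated starts are shifted. The annotated start of Vmn2r43 is not an ATG, while those of Vmn2r36 and Vmn2r49 are, so whether it is a close copy cannot be read from this value. Sequence at the 3′ ends was not compared.

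Genes called in 1 library alone had low folds. Of the 17 called in the control alone, Vmn2r30 had the highest fold, 4.80, with 18 reads (10.7 to 28.4) beyond its 5′ end, and was the single one past a −log10 q of 5, at 5.68. Vmn2r84 followed with a fold of 4.04, then Vmn1r28 (3.73), Vmn1r252 (3.64), Vmn2r1, Vmn1r48 and Vmn2r33 (3.54 each), Vmn1r70 (3.38), and Vmn1r174 and Vmn2r85 (3.37 each). The remaining 7 had folds from 2.83 at Vmn2r32 to 3.33 at Vmn2r50. The control peak of 15 reads at Vmn1r48 covered 197 bases of its window shown above. Lactate alone called 2 genes, Vmn1r51, with 12 reads (6.20 to 21.0) over 149 bases of its window, and Vmn1r166, with 13 reads. Apart from Vmn2r30 and from Vmn2r32, with 22 reads over a local background of 7.14, the genes called in 1 library alone had summits of 11 to 15 reads, close to the lowest called summit of 11. Of the 24 genes called in the control, 8 had peaks in the window that did not touch the gene, as had 3 of the 9 called in the lactate library.

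Away from the ends, peaks in gene bodies lay almost entirely in the long Vmn2r genes. A body peak meets neither 1 kb end window, so most Vmn1r genes, with a median length of 924 bp, are too short to hold one. The split between the families was thus largely set by this definition. A body peak without a gene-end peak was found in the control at 24 genes, 23 of them Vmn2r, and with lactate at 10, 9 of them Vmn2r. Of all 21779 placed genes, 10381 had a control peak at an end or in the body and 6996 had one at an end. With lactate 12606 and 9803 did. The genes between these counts had a body peak alone. With gene ends included, 42.0% of Vmn2r genes had a control peak and 17.0% a lactate peak, against 47.7% and 57.9% over all genes. By fold, Vmn2r39 led the control with 6.06 and 23 reads (14.6 to 34.5), and no lactate peak lay in that gene. Vmn2r77 had 21 control reads (13 to 32.1) and 19 lactate reads (11.4 to 29.7) in overlapping peaks. Vmn2r23 had a control peak of 20 reads alone and, farther along the gene, one of 28 control reads that overlapped a lactate peak of 20. Vmn2r31 and Vmn2r37 had control peaks of 24 and 19 reads and no lactate peak. In the lactate library the next after Vmn2r1 (the peak beside Vmn2r2), Vmn2r77 and Vmn2r23 were Vmn2r13 with a fold of 4.19 and Vmn1r30 with 3.94, both with a control partner. More than 1 kb from their ends, Vmn2r bodies held 25.7 control peaks per Mb (19.4 to 33.4) and 6.54 lactate peaks per Mb (3.58 to 11). All protein-coding gene bodies held 16.5 and 16.8 per Mb.

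Among Vmn2r genes of 2 neighbouring clusters of chromosome 7, body summits recurred at like distances from the 5′ end. The strand was known for 22 of 24 such genes, all on the minus strand, with a median length of 17603 bp. Control summits lay 9830 to 10847 bp along 7 of them: Vmn2r31, Vmn2r37, Vmn2r39, Vmn2r42, Vmn2r43, Vmn2r49 and Vmn2r50. Lactate summits lay at 9849 bp in Vmn2r49 and 10903 bp in Vmn2r50. No summit of either library fell between 8 and 9.5 kb or between 4 and 6 kb. Control summits also lay 13585 to 14348 bp along 4 genes and 15075 to 15647 bp along 6 genes, the latter close to the 3′ end of the shorter copies. Lactate summits lay 13605 to 14004 bp along 2 genes and 14900 to 15615 bp along 2. These intervals of distance were chosen after the summits were seen. In the cluster of Vmn2r29 to Vmn2r37, 14 of 18 promoter windows were at least 90% identical to that of another gene of the set. The median was 99%. In the cluster of Vmn2r46 to Vmn1r71 3 of 10 were, those of Vmn2r49, Vmn2r50 and Vmn2r51, and the median was 37.3%. These 10 windows include those of Vmn1r67 to Vmn1r71, each below that median, so it does not describe the Vmn2r genes alone. The windows of Vmn2r48 and Vmn2r52 were below 90%. Of the 7 genes with control summits 9830 to 10847 bp along, Vmn2r31, Vmn2r39, Vmn2r49 and Vmn2r50 had a copy with a window at least 90% identical. The windows of Vmn2r37, Vmn2r42 and Vmn2r43 were at most 33.3% identical to any other. Their annotated starts are not an ATG, unlike those of Vmn2r31, Vmn2r39, Vmn2r49 and Vmn2r50, and identity without gaps falls where starts are shifted. Low values here therefore do not show that these genes lack close copies. Sequence of the gene bodies was not compared, so whether reads are shared between copies at these places was not tested.

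**Figure D3:**
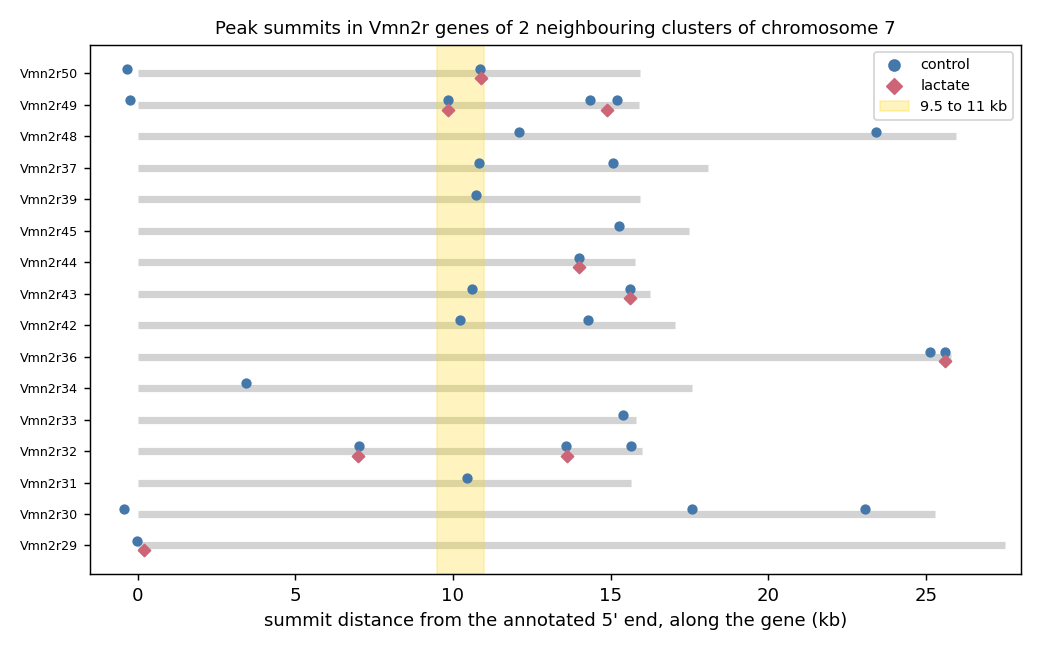
Summits of control (blue circles) and lactate (red diamonds) peaks along the 16 Vmn2r genes with a summit in the clusters Vmn2r29 to Vmn2r37 and Vmn2r46 to Vmn1r71, by distance from the annotated 5′ end (kb, x axis); grey bars are the genes, with Vmn2r29 cut short and its 3 farther control summits left out. Of these genes, 7 have a control summit and 2 a lactate summit in the shaded stretch from 9.5 to 11 kb.

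The genes formed 16 clusters of at least 3 members less than 500 kb apart, which hold 258 of the 266 genes. With 10 kb added on each side they span 17.9 Mb. The clusters held 590 control and 215 lactate peaks, or 32.9 per Mb (30.3 to 35.7) and 12 per Mb (10.4 to 13.7). The rest of chromosomes 1 to 12 held 19.2 and 16.4 per Mb. So the control density was above that of its surroundings and the lactate density below, and the control had 2.74 times as many peaks as the lactate library in the clusters against 1.17 times in the rest. Control peaks outnumbered lactate peaks in each of the 16 clusters, at ratios from 1.46 to 5.75. On chromosome 7 alone the clusters held 35.1 control and 12.5 lactate peaks per Mb, and the rest of that chromosome 17.1 and 17.3.

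Regions without protein-coding genes showed the same order, less strongly. Outside protein-coding genes and 1 kb around them, the rest of chromosomes 1 to 12 held 16.3 control and 9.11 lactate peaks per Mb, a ratio of 1.79. The same kind of region within the clusters held 33.9 and 10.8 per Mb, a ratio of 3.15. The interval of the lactate density there, 9.10 to 12.6, reached down to that of the rest, while the control interval, 30.9 to 37.1, lay above. Farther than 10 kb from protein-coding genes, both densities of the clusters lay above the rest, 32.4 against 16.7 control peaks per Mb and 10.8 (8.70 to 13.2) against 8.11 lactate peaks per Mb. Among stronger peaks, with a −log10 q of at least 5, the clusters held 85 control and 57 lactate peaks (ratio 1.49) and the rest 4275 and 6929 (ratio 0.617). Local background at cluster peaks had medians of 3.35 control reads and 3.16 lactate reads, against 3.32 and 4.38 over all peaks; its part in the difference was not tested. How much of each cluster can be mapped uniquely was not analysed here.

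**Figure D4:**
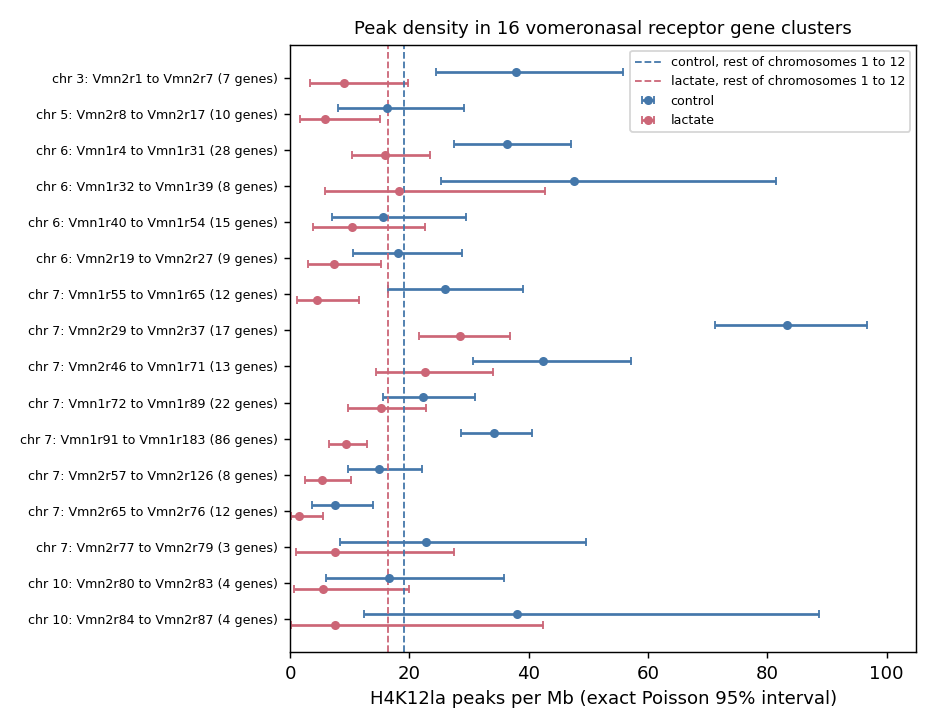
Peaks per Mb (x axis) in each of 16 vomeronasal receptor gene clusters (y axis, with first and last gene and number of genes) in the control (blue) and lactate (red) library; bars are exact Poisson 95% intervals, which cover counting error only, and dashed lines give the rest of chromosomes 1 to 12 (19.2 and 16.4). The control point lies to the right of the lactate point in all 16 clusters, and the Vmn2r29 to Vmn2r37 cluster stands at 83.2 and 28.6.

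The densest cluster in both libraries was that of Vmn2r29 to Vmn2r37 on chromosome 7, 7212996 to 9223653, which holds 17 Vmn2r genes and 14 Vmn pseudogenes. It held 169 control peaks, or 83.2 per Mb (71.1 to 96.8), and 58 lactate peaks, or 28.6 per Mb (21.7 to 36.9). It made up 11.3% of the summed span but 28.6% of the control and 27.0% of the lactate peaks. Its control peaks had 11 to 35 summit reads with a median of 17, and 34 of 169 passed a −log10 q of 5. Its lactate peaks had a median of 15, and 16 of 58 passed. Within it 132 control and 44 lactate peaks lay outside any protein-coding gene, gene end or Vmn pseudogene, and 49 of the 58 lactate peaks had a counterpart among the control peaks. Median local background was 3.64 and 3.13 reads. Without this cluster the others held 26.5 control and 9.87 lactate peaks per Mb.

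**Figure D5:**
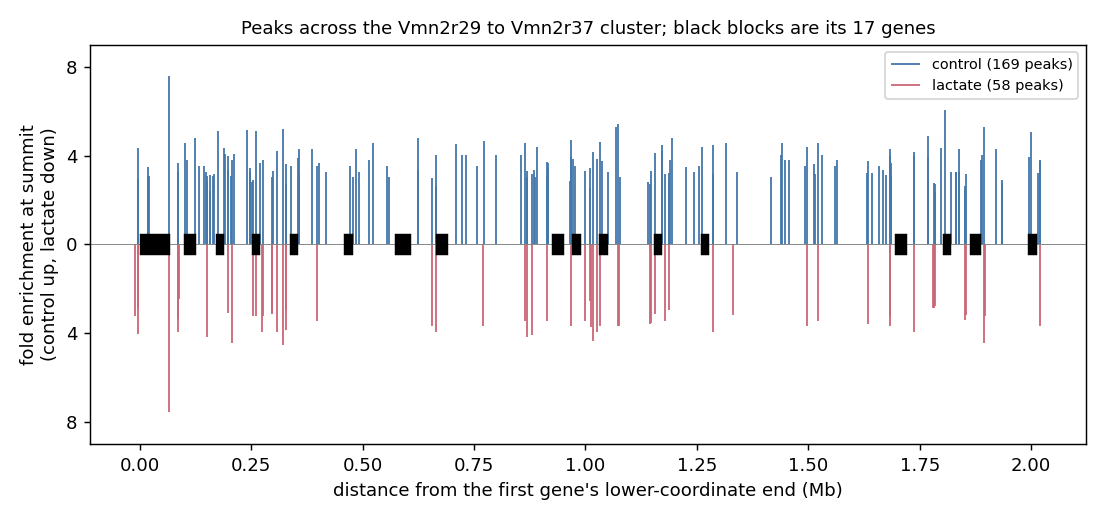
Peaks across the Vmn2r29 to Vmn2r37 cluster of chromosome 7 by distance from its first gene (Mb, x axis), with fold enrichment at the summit (y axis) drawn upward for 169 control peaks (blue) and downward for 58 lactate peaks (red); black blocks are the 17 genes. The highest line in each direction is the peak at the outer start of Vmn2r29, with folds of 7.58 and 7.53.

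Other clusters ranged widely. After the densest came the chromosome 6 cluster of Vmn1r32 to Vmn1r39 with 47.6 control and 18.3 lactate peaks per Mb, and the chromosome 7 cluster of Vmn2r46 to Vmn1r71 with 42.4 and 22.7. The largest, with 86 Vmn1r genes from Vmn1r91 to Vmn1r183, held 136 control peaks (34.2 per Mb) and 37 lactate peaks (9.31 per Mb), and 5 of its genes had a control gene-end peak and 1 a lactate one. The sparsest was that of Vmn2r65 to Vmn2r76, with 10 control and 2 lactate peaks. The control density was above the rest of chromosomes 1 to 12 in 10 of 16 clusters, the lactate density in 3. Summed, clusters of Vmn1r genes alone and of Vmn2r genes alone had 33.6 and 34.0 control peaks per Mb and 11.4 and 11.3 lactate peaks per Mb. The Vmn2r sum leaned on the densest cluster, with 169 of 274 control and 58 of 91 lactate peaks in 2.03 of 8.06 Mb. Its other clusters ranged from 7.54 to 38.0 control and 1.51 to 9.07 lactate peaks per Mb. Clusters of Vmn1r genes alone ranged from 15.5 to 47.6 and from 9.31 to 18.3.

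Most cluster peaks lay outside the receptor genes and their ends, as did most of the span. Of the 17.9 Mb, 13.8 Mb lay outside protein-coding genes and 1 kb around them. The part of the span within 1 kb of a receptor gene end was not computed, so the shares of peaks there have no such background. Of the 590 control peaks, 28 met a gene end of the set (4.75%), 55 lay in a receptor gene's body (9.32%), 14 in a Vmn pseudogene and 452 (76.6%, 73% to 80%) outside all protein-coding genes and pseudogenes of the family. Of the 215 lactate peaks the numbers were 9 (4.19%), 14 (6.51%), 6 and 142 (66.0%, 59.3% to 72.3%). Ends of other protein-coding genes within the clusters took 23 control and 29 lactate peaks, or 3.90% (2.49% to 5.79%) and 13.5% (9.22% to 18.8%), the one kind of place where lactate peaks were the more numerous. Of the control peaks in clusters 24.4% (21.0% to 28.1%) had a lactate partner, that is, a peak it overlapped, and 67.0% (60.3% to 73.2%) of lactate peaks had a control partner, where the shares over all peaks were 37.7% and 43.4%. Where a control peak had a partner, the summits lay a median of 75 bp apart. Cluster peaks without a partner had a median of 14 reads in each library, and those with one had 20 control or 16 lactate reads.

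Most of the highest peaks outside the receptor genes' ends were shared, and the one in Vmn2r39 was called in the control alone. The first in both libraries lay on chromosome 7 at 12010342 to 12010840, with a control fold of 6.86 and 41 reads (29.4 to 55.6), and at 12010354 to 12010830, with a lactate fold of 7.92 and 47 reads (34.5 to 62.5). Its summit was 30795 bp from the nearest receptor gene end, that of Vmn1r77, and in no protein-coding gene. Chromosome 7 also held those at 5928008 to 5928298, with 26 control and 22 lactate reads, 10284918 to 10285274, with 24 and 19, and 9912412 to 9912809, with 31 and 14. The control order continued with the body peak of Vmn2r39 and, at the same fold of 6.06, a peak at an end of Pyurf on chromosome 6. In the lactate library the order was led, after the first, by peaks at the zinc finger genes Zscan22 (30 reads), Zfp788 (38) and Zscan18 (30), which interrupt the clusters of chromosome 7, and at Pyurf (34). Each of these overlapped a control peak, of 14, 22, 16 and 23 reads.

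Genes that serve the receptors in vomeronasal neurons were mostly without a gene-end peak, as were most protein-coding genes in each library. Of 24 signalling genes, 4 had a control and 7 a lactate peak, 3 of them both, with median summits of 13 and 22 reads. Those called in both were Gnao1, the G protein that couples to V2R receptors (12 and 22 reads), the calcium release channel Itpr1 (14 and 25) and the adenylyl cyclase Adcy2 (19 and 17). Gnai2, which couples to V1R receptors, had 24 lactate reads, Gnb1 33, Gng8 19 and Slc9a3r1 12, each with no control gene-end peak, while H2-M10.3, a nonclassical class I gene of V2R neurons, had 11 control reads and no lactate peak. Of 24 genes of neuron development and receptor choice, 7 were called in each library and 4 in both: the demethylase Kdm1a (16 and 28 reads), the methyltransferase Ehmt1 (20 and 36), the heterochromatin protein Cbx5 (15 and 36) and the lamin B receptor Lbr (20 and 30). Atf5, Robo2 and Adcy3 were called in the control alone with 12 to 16 reads, and Lhx2, Gap43 and Ehmt2 in the lactate library alone with 11 to 20. These shares stand beside 32.1% and 45.0% over all genes, with 28.8% in both, 3.35% in the control alone and 16.2% in the lactate library alone.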

How the data were processed

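H4K12la CUT&Tag was done on 1 NaCl-treated (control) and 1 lactate-treated Neuro2a library, with reads of 150 bases per the labels' protocols. BWA, deepTools, MACS2 and the build mm10 are named per the submitters' processing notes. Not given in the sources used here were versions, settings, any control library and any spike-in. The authors deposited 1 narrowPeak list per library. Per the file format, the deposited fold is the ratio of summit to local background, both deposited −log10 columns (p and q) describe that summit, and the deposited score follows from −log10 q; start, end and summit are other columns of positions.

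Peaks of the autosomes (1 to 19), X and Y entered. Summit pileup was solved from fold, (pileup + 1)/(background + 1), and the Poisson −log10 p, within 0.001 for 46591 of 46592 control and all 39768 lactate peaks. Both this and the overlap steps were tested on simulated data. Genes and promoter windows came from RefSeq tables of GRCm38.p6, and genes listed below 3 Mb outside chromosome Y were not placed. Counts of genes and peaks have exact binomial (Clopper-Pearson) or exact Poisson 95% intervals. Rates for the rest of a chromosome use the span from its first to its last peak. Genes named were those called in both libraries, up to 10 of highest fold called in 1 library, up to 5 per library with body peaks, up to 5 cluster peaks per library outside gene ends, and the listed pathway genes with a gene-end peak. Members and lists were chosen with earlier results of these data known. Alternatives were stricter thresholds, equal list lengths, other windows, gene sets and cluster rules. Python 3.11.15, numpy 2.4.6, pandas 2.3.3, scipy 1.17.1 and matplotlib 3.10.9 were used.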

Additional observations from a re-analysis of the deposited data

How the results depend on the processing

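The control count exceeded the lactate count under all alternatives run: 10 for genes with a gene-end peak, for those called in 1 library alone and for genes with a peak anywhere, and 8 for cluster peaks and their density. Of 102 recomputed values, 62 stayed near the reported ones. Thresholds changed the sizes most. At a −log10 q of at least 2 cluster density was 29 control peaks per Mb, and with lists of equal length 28.8. At a −log10 q of at least 3, gene-end calls were 8 in the control and 6 with lactate, with 3 in the control alone and 1 in the lactate library alone, peaks anywhere 30 and 12 genes, cluster peaks outside gene ends 283 and 121, and density 16.2 and 7.08. At a −log10 q of at least 5 these were 5 control and 4 lactate genes with 3 in both, 2 control alone and 1 lactate alone, 16 and 7 genes anywhere, 80 and 53 peaks, and 4.74 and 3.18 per Mb. A 500 bp window left 1 gene called in the lactate library alone. A 3 kb window gave 57 control and 14 lactate genes, 12 in both and 45 in the control alone, and 73 control genes with a peak anywhere. With the 5′ end alone, for 243 genes of known strand, 12 genes had a control and 5 a lactate peak, 4 had both, 8 were called in the control alone and 1 in the lactate library alone. With pseudogenes included (437 genes) 37 and 14 were called, 12 in both, and 33 had a lactate peak anywhere. Clusters joined at 200 kb held 10.27 lactate peaks per Mb. Without the densest cluster, an alternative chosen after seeing the data, densities were 26.5 and 9.87. Higher thresholds and fewer or more genes set these sizes by construction; causes of other shifts were not tested. No paired analysis was possible because each group has 1 library. No summit below 11 reads was called in either library, and the part of depth in this floor was not tested.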

Other observations

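Vmn pseudogenes, the untranslated relatives that lie among the receptor genes, had gene-end peaks about as often as the receptor genes. Of 171 on chromosomes 1 to 12, 13 were called in the control, or 7.60% (4.11% to 12.6%), and 5 in the lactate library, or 2.92% (0.956% to 6.69%). All 5 were also called in the control, and 8 were called in the control alone. None was called in the lactate library alone. Over all protein-coding genes the shares were 32.1% in the control, 45.0% in the lactate library and 28.8% in both. They were 3.35% in the control alone and 16.2% in the lactate library alone.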
